A study of Homo sapiens with 8 samples.

Results

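The genes described here are 42 human genes of the interferon-stimulated and nucleic acid sensing programme, among 60291 gene rows counted in each library. They were chosen by name and not by a cut on their values, but with earlier results of these data known. All 42 were found in the counts, where 3 of them carry older symbols: DDX58 (now RIGI), MB21D1 (now CGAS) and TMEM173 (now STING1). By role they comprise the nucleic acid sensors DDX58, IFIH1, DHX58, TLR3 and MB21D1, the adaptors MAVS and TMEM173, the transcription factors STAT2, IRF1, IRF3, IRF7 and IRF9, 19 antiviral effectors, ISG15 with its enzymes HERC5 and USP18, and 8 further interferon-stimulated genes.

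The libraries are strand-specific total RNA libraries of A549, an established human lung adenocarcinoma cell line that holds much NRF2 protein because its KEAP1, the negative regulator of NRF2, is mutated. In each transfection 250000 cells received a lipid reagent with 5 nmol of siRNA, a small double-stranded RNA that steers the breakdown of mRNAs it matches, and RNA was taken after 48 h. Of the 8 libraries, 3 received NFE2L2 siRNA, each a different duplex against the mRNA of NRF2 (duplexes 1, 2 and 3), 4 received control siRNA (control duplexes 1 and 2, with 2 repeat transfections each), and 1 mock library received the reagent without RNA. All 8 share the A549 background, every siRNA library holds a foreign RNA duplex, and each NFE2L2 duplex was transfected 1 time, so that a duplex and its library cannot be told apart.

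Cells detect foreign or misplaced RNA through RIG-I-like receptors and TLR3, and cytosolic DNA through cGAS. The adaptors MAVS, for the RIG-I-like receptors, and STING, for cGAS, then activate IRF3 and IRF7, which switch on interferon genes. Secreted interferon signals through a complex that holds STAT2 and IRF9 and binds the interferon-stimulated response element in the promoters of antiviral genes such as the IFIT, IFITM, OAS and MX families. NRF2 itself drives antioxidant genes through antioxidant response elements.

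RefSeq promoter windows on GRCh38.p14, from 250 bases before to 50 bases after a listed start, were at hand for 31 of the 42 genes. The core of the interferon-stimulated response element, searched as 2 copies of GAAA separated by any 2 bases on both strands, occurred in windows of 22 of these 31 genes (71.0%), against 4.38% of all 27305 genes with a window. The gamma-activated site, searched as TTCNNNGAA, occurred in 9 genes (29.0%, against 9.38% of all genes), and the antioxidant core TGACNNNGC in 7 (22.6%, against 16.1%). A match is a description of letters and not a shown binding site. The 200 bases before the start are printed for 4 genes with the response element and for DDX58, whose window held none of the 3 motifs, since their values carry most of the comparisons below. Matches to the response element are in capitals, on either strand. In IFITM1 the capitals at the end are the first 6 bases of a match that crosses the start, and in ISG15 a pair of matches overlaps. The windows are chr11:313840-314039 (plus strand) for IFITM1, chr11:320861-321060 (minus) for IFITM3, chr1:1013297-1013496 (plus) for ISG15, chr10:89392423-89392622 (plus) for IFIT1 and chr9:32526197-32526396 (minus) for DDX58.
IFITM1: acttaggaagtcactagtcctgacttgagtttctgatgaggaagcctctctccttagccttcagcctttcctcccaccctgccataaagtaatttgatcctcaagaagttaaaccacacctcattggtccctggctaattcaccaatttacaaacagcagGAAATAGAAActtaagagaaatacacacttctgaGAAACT
IFITM3: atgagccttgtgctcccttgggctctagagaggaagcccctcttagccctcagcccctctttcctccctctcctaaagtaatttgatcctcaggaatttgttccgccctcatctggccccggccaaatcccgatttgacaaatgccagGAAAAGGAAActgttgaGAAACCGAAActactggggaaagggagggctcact
ISG15: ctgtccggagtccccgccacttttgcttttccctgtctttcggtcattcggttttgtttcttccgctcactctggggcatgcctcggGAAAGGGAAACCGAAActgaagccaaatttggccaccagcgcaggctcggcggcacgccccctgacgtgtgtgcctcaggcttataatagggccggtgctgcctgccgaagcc
IFIT1: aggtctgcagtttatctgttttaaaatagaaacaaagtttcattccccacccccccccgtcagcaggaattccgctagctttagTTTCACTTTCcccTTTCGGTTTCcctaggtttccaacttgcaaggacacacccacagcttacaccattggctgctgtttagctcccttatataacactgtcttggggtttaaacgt
DDX58: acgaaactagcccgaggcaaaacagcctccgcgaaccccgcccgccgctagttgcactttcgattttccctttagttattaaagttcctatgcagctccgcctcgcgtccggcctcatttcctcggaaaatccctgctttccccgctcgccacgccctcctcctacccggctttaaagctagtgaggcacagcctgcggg

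**Figure D1:**
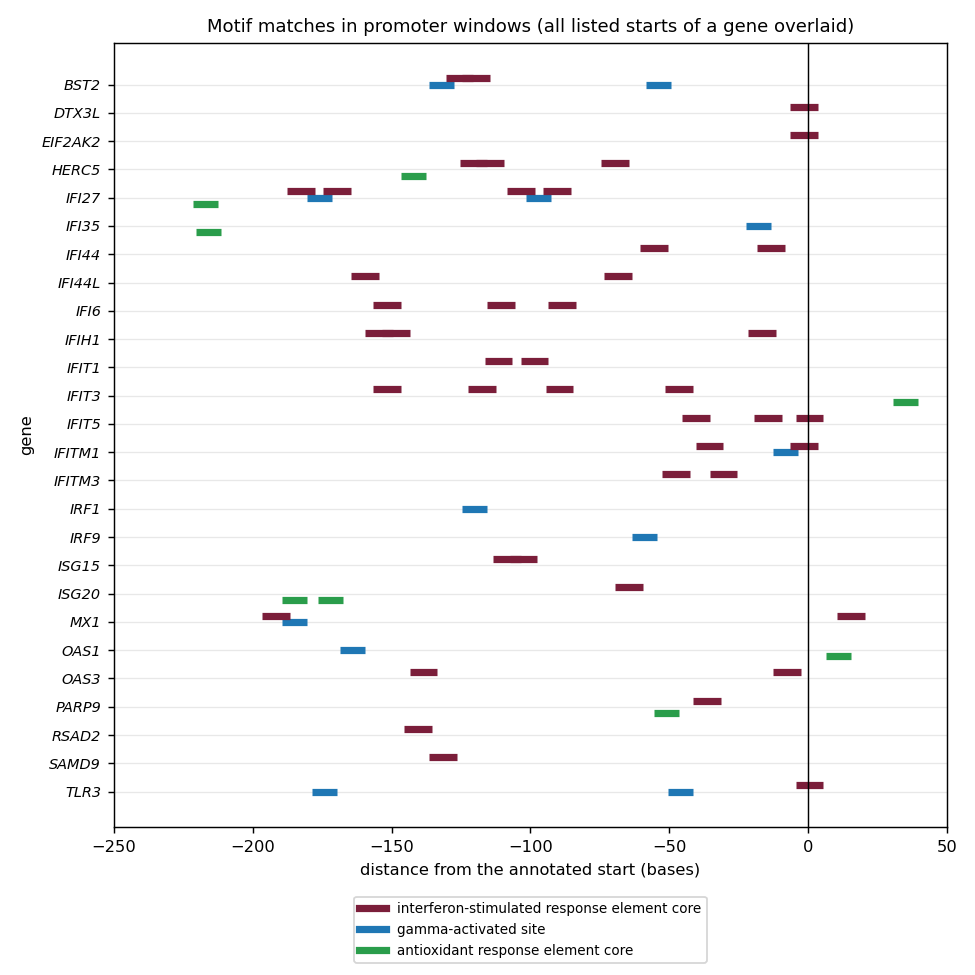
Distance of each motif match from the annotated start, in bases, for the genes with at least 1 match in a promoter window (first base of the transcript at 0, windows of all listed starts overlaid). Bars mark the interferon-stimulated response element core (dark red), the gamma-activated site (blue) and the antioxidant core (green); 22 genes have a dark red bar, most of them before the start.

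Genes took 35525141 to 41645410 reads in a library, or 60.3% to 65.6% of all counted entries, and 3 reads amount to 0.0705 to 0.0839 CPM (normalized counts per 1000000 gene counts). NFE2L2 was counted at 1178, 2044 and 1262 reads with NFE2L2 duplexes 1 to 3 and at 3974 to 4227 reads in the control libraries, giving a log2 fold change of −1.55 with a standard error (SE) of 0.178 (adjusted p = 0.000994). The classical NRF2 targets GCLM, NQO1 and TXNRD1 fell, with log2 fold changes of −2.52, −2.19 and −2.57. The 6 epithelial markers were all counted, with a sum of 8451 to 13072 CPM. Across the 4 control libraries, levels per exon length spanned a wide range. IRF3 was the highest with 16.1 ± 0.743 CPM per kilobase (SD, n = 4), followed by EIF2AK2 with 10.9 ± 0.731, DTX3L with 8.19 ± 0.434, IFIT5 with 7.67 ± 0.486, IFITM2 with 6.56 ± 1.40 and MAVS with 6.16 ± 0.519. The spreads of the neighbours DTX3L and IFIT5 overlap, as do those of IFITM2 and MAVS. In all, 23 of the 42 genes reached 1 CPM per kilobase and 9 stayed under 0.1, among them MX1, MX2, RSAD2, OAS2, BST2 and TMEM173.

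The first comparison asks whether these genes differ between the 3 NFE2L2 siRNA and the 4 control siRNA libraries. With DESeq2, the tool for which the study set a threshold of 0.01 on the adjusted p, 4 of 36 members passed (11.1%, against 7.7% of all genes). The main test here was edgeR's quasi-likelihood test with Benjamini-Hochberg adjustment over 17811 tested genes. In it no member passed 0.01, although IFITM2 missed it narrowly (adjusted p = 0.01004). The share of all tested genes that passed was 2.76%. At a looser threshold of 0.05, 6 members were higher, namely IFITM1, IFITM2, IFITM3, DDX58, IFIT2 and ISG15, against 4.63% of all genes, and 0 were lower, against 3.54%. Of the 42 members 39 were tested. IFI44L, MX2 and XAF1 had at most 9 reads in any library and were not, and BST2, OAS2 and RSAD2 reached the minimum of 10 reads only in the library of NFE2L2 duplex 3. An unadjusted p under 0.05 was found for 14 of the 39 (35.9%, against 25.0% of all genes). Over the 36 members that did not need the duplex 3 library to be tested, the median log2 fold change was 0.15, against 0.01 over all genes so chosen, and 26 were positive and 10 negative (72.2% positive, against 50.8%). With the 3 genes it admitted, the median was 0.28. Every NFE2L2 siRNA library lay above every control library for 8 members (20.5%, against 11.9% of all genes): the 6 named above, STAT2 and IFI44. Every one lay below for 2, DHX58 and MB21D1 (5.13%, against 11.4%). In bulk RNA, fewer cells with a transcript and less RNA per cell cannot be told apart.

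The number of calls depended on the tool and on single libraries. DESeq2 placed DDX58, IFITM1, IFITM2 and IFITM3 past 0.01, all higher, or 4 of the 36 members it gave an adjusted p (11.1%, against 7.7% of all genes), and limma-voom placed 0 (against 2.61%). Without NFE2L2 duplex 2, edgeR called 4 of 39 members (10.3%, against 5.16% of all genes), IFITM1 (adjusted p = 0.00942), IFITM2 (0.00318), IFITM3 (0.00950) and SAMD9 (0.00859). Without repeat 1 of control duplex 1, it called IFITM2 (0.00622), 1 of 39 (2.56%, against 1.56%). Without NFE2L2 duplex 3, it called 0 of 36 (against 1.35%) and their median was 0.08.

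**Figure D2:**
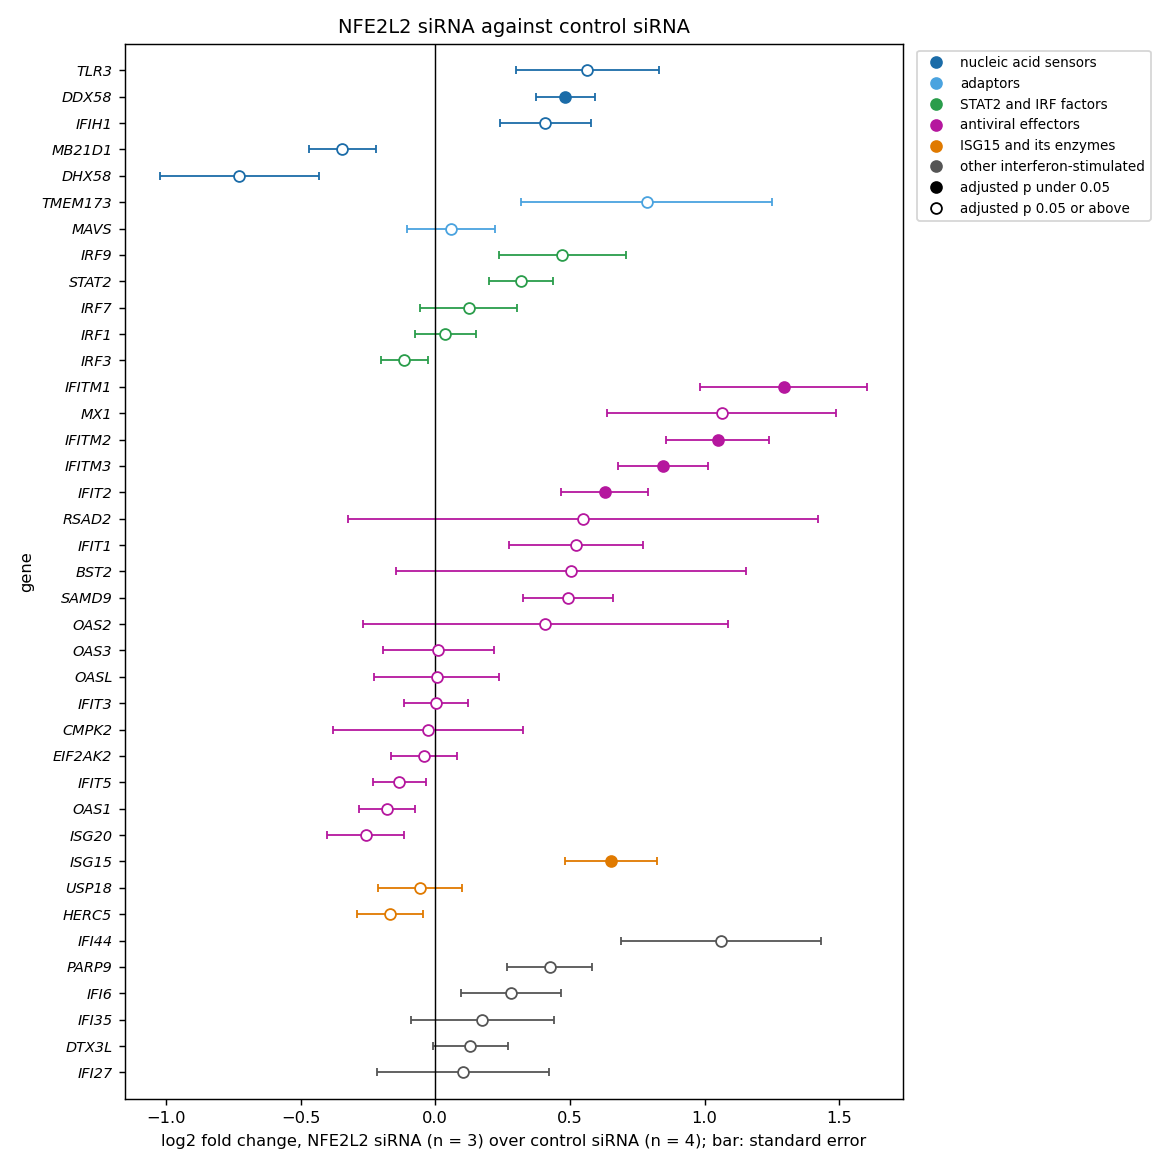
Log2 fold change of each of the 39 tested genes between NFE2L2 siRNA (n = 3) and control siRNA (n = 4), with its standard error as a bar and the role as the colour. Filled points are the 6 genes with an adjusted p under 0.05, all to the right of 0; IFITM1 is the farthest right at 1.29 and DHX58 the farthest left at −0.73.

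Among the sensors, the RNA helicase RIG-I gene DDX58 (ENSG00000107201.5, chromosome 9 from 32455300 to 32526206 in GRCh37, minus strand) differed little between duplexes. It had 1037, 1039 and 1058 reads with NFE2L2 duplexes 1 to 3, against 683 and 640 in the repeats of control duplex 1, 756 and 744 in those of control duplex 2, and 684 in mock. All 3 NFE2L2 siRNA libraries were above the 4 control libraries and mock. The means were 26.8 ± 2.09 CPM (SD, n = 3) and 19.2 ± 1.65 CPM (SD, n = 4), a log2 fold change of 0.48 (SE 0.109, adjusted p = 0.0266). IFIH1, which encodes the long-RNA sensor MDA5, had 120, 173 and 210 reads against 117, 137, 115 and 102, in the same order of libraries, and 105 in mock. Its first NFE2L2 library lay within the control range, and the log2 fold change was 0.41 (SE 0.170, adjusted p = 0.170).

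TLR3, the endosomal receptor for double-stranded RNA, had 65, 96 and 164 reads with the NFE2L2 duplexes, 90, 63, 61 and 57 in the controls and 78 in mock. Duplex 3 stood highest, duplex 1 lay within the control range, and the log2 fold change of 0.56 (SE 0.266, adjusted p = 0.222) was 0.22 without duplex 3. DHX58, the gene of LGP2, a helicase that modulates RIG-I and MDA5, had 12, 10 and 13 reads against 13, 18, 21 and 21, and 8 in mock. Its normalized levels were below all controls in each NFE2L2 library and in mock, with a log2 fold change of −0.73 (SE 0.294, adjusted p = 0.159). MB21D1, the gene of the DNA sensor cGAS, was counted at 407, 594 and 522 reads against 581, 661, 584 and 595, and 632 in mock. After normalization each NFE2L2 library was below each control library, and the log2 fold change was −0.34 (SE 0.1246, adjusted p = 0.121). The fitted value was positive for 3 of the 5 sensors and negative for DHX58 and MB21D1, where 51.3% of all tested genes were positive.

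The adaptor MAVS, through which RIG-I and MDA5 signal, had 1911, 3368 and 3718 reads with NFE2L2 duplexes 1 to 3, 2945, 2805, 2608 and 2348 in the controls and 2918 in mock. Duplex 1 lay below and duplexes 2 and 3 above all controls after normalization, so that the log2 fold change was 0.06 and an interval of 2 SE to each side ran from −0.27 to 0.38. TMEM173, the gene of the cGAS adaptor STING, was hardly expressed, with 13, 9 and 34 reads against 7, 12, 7 and 14, and 8 in mock. The NFE2L2 library with a value above the control range was that of duplex 3, and the log2 fold change of 0.78 (SE 0.466, adjusted p = 0.330) was 0.12 without it.

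Of the 5 transcription factors, STAT2, a subunit of the complex formed after type I interferon, had 1834, 2060 and 2607 reads against 1581, 1406, 1878 and 1636, and 1848 in mock. Normalized, the 3 NFE2L2 libraries (51.3, 52.4 and 61.3 CPM) stood just above the highest control (50.8 CPM), and the log2 fold change was 0.32 (SE 0.119, adjusted p = 0.130). Its partner IRF9 had 202, 113 and 144 reads against 108, 101, 124 and 88, and 120 in mock. Duplex 1 was the highest, and the log2 fold change of 0.47 (SE 0.234, adjusted p = 0.244) was 0.13 without it. IRF7, an interferon-inducible activator of interferon genes, had 109, 143 and 215 reads against 126, 132, 140 and 133, and 142 in mock. Its levels were below the controls with duplex 1, within their range with duplex 2 and above it with duplex 3 (log2 fold change 0.12, SE 0.180).

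IRF3, which acts before interferon is made, had 1904, 2356 and 2379 reads against 2298, 2402, 2148 and 2157, and 2736 in mock. The NFE2L2 and control ranges overlapped, and the fitted log2 fold change of −0.11 had an interval of −0.29 to 0.06. IRF1, an activator also induced by interferon gamma, had 1227, 1583 and 1507 reads against 1149, 1290, 1439 and 1389, and 1287 in mock. These ranges overlapped too, with a log2 fold change of 0.04 and an interval of −0.19 to 0.26. No factor passed 0.05 with edgeR, DESeq2 or limma-voom, and 1, STAT2, had an unadjusted edgeR p under 0.05.

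Of the 6 members past 0.05, 4 were antiviral effectors, and 3 of these belong to the IFITM family of membrane proteins that hinder virus entry. IFITM2, IFITM1 and IFITM3 lie side by side on chromosome 11 from 303655 to 329475 in GRCh37. Because they are close copies of each other, reads may have been lost or shared between them in the counting. IFITM2 (ENSG00000185201.12) had 811, 652 and 1112 reads with NFE2L2 duplexes 1 to 3, 518 and 344 in the repeats of control duplex 1, 353 and 341 in those of control duplex 2, and 360 in mock. All 3 NFE2L2 libraries were above all controls, of which repeat 1 of control duplex 1 was well above the others. The means were 21.8 ± 4.84 CPM (SD, n = 3) and 10.5 ± 2.25 CPM (SD, n = 4), a log2 fold change of 1.049 (SE 0.190, adjusted p = 0.01004).

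IFITM3 (ENSG00000142089.11) had 375, 394 and 624 reads against 295, 229, 222 and 217, and 243 in mock. The order of the libraries was much the same, with duplex 3 highest and repeat 1 of control duplex 1 the highest control. Means of 11.7 ± 2.56 CPM (SD, n = 3) and 6.52 ± 0.936 CPM (SD, n = 4) gave a log2 fold change of 0.85 (SE 0.168, adjusted p = 0.0151). IFITM1 (ENSG00000185885.11), counted far less, had 34, 26 and 63 reads against 17, 16, 12 and 17, and 15 in mock. Again the groups did not overlap, and the log2 fold change was 1.29 (SE 0.310, adjusted p = 0.0330). Without duplex 3 it was 0.93 with an adjusted p of 0.113, while IFITM2 and IFITM3 had 0.90 (0.0431) and 0.65 (0.0470).

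The IFIT genes, whose products bind foreign RNA or its translation machinery, form a row of 4 members on chromosome 10 from 91043451 to 91181362. IFIT2 (ENSG00000119922.7) had 142, 202 and 200 reads against 108, 91, 127 and 113, and 122 in mock. Each NFE2L2 library was above each control library, at 4.60 ± 0.590 CPM (SD, n = 3) and 2.98 ± 0.415 CPM (SD, n = 4), with a log2 fold change of 0.63 (SE 0.162, adjusted p = 0.0426). Its neighbour IFIT1 had 471, 364 and 356 reads against 345, 324, 218 and 168, and 201 in mock. Duplex 1 was above the whole control range and the others within it, the repeats of control duplex 1 being the higher controls, and the log2 fold change of 0.52 (SE 0.249, adjusted p = 0.225) was 0.30 without duplex 1. IFIT3 had 165, 188 and 205 reads against 168, 181, 171 and 178, and IFIT5 had 1159, 1205 and 1214 against 1346, 1250, 1146 and 1200. In neither did the groups separate.

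MX1, a GTPase that traps viral nucleocapsids, had 48, 51 and 172 reads against 33, 25, 52 and 48, and 40 in mock. Duplexes 1 and 2 lay within the control range and duplex 3 far above it, and the log2 fold change of 1.06 (SE 0.427, adjusted p = 0.157) was 0.30 without duplex 3. EIF2AK2, the gene of the double-stranded RNA-activated kinase PKR, had 4895, 4633 and 4065 reads against 4299, 4206, 4857 and 4364, and 5591 in mock. Its fitted value was −0.04 with an interval of −0.29 to 0.21. Over the 15 effectors that did not need the library of duplex 3 to be tested, 10 fitted values were positive and 5 negative. Of all genes so chosen 50.8% were positive. The median of these effectors was 0.01, with a range of −0.26 to 1.29. The OAS genes, which make the activator of RNase L, overlapped between the groups where well counted. OAS1 was counted at 855 to 991 reads after NFE2L2 siRNA against 844 to 1069, and OAS3 at 974 to 2203 against 1414 to 1774.

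ISG15 (ENSG00000187608.5, chromosome 1 from 936518 to 949920 in GRCh37, plus strand) encodes a ubiquitin-like protein that is attached to other proteins. It had 247, 277 and 223 reads against 130, 189, 140 and 141, and 173 in mock. The lowest NFE2L2 library, duplex 3 with 5.24 CPM, was barely above the highest control with 5.08 CPM. The means were 6.40 ± 1.00 CPM (SD, n = 3) and 4.07 ± 0.700 CPM (SD, n = 4), a log2 fold change of 0.65 (SE 0.171, adjusted p = 0.0459). The ligase HERC5, with 333 to 489 reads against 424 to 496, and the ISG15 protease USP18, with 182 to 240 against 183 to 229, overlapped with the controls; USP18 has near-identical copies in the genome and its counts are uncertain.

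Of the other 8 members, all 6 that were tested had positive fitted values, from 0.10 to 1.06, where 51.3% of all tested genes were positive. Past 0.05 with edgeR, DESeq2 or limma-voom were 0 of them. An unadjusted edgeR p under 0.05 was found for 2 (33.3%, against 25.0% of all genes). IFI44 had 24, 19 and 29 reads against 14, 4, 11 and 14, without overlap (log2 fold change 1.06, SE 0.371, adjusted p = 0.111). PARP9 had 934, 827 and 1488 reads against 806, 756, 731 and 717 (0.42, SE 0.157, adjusted p = 0.127). Duplex 2 lay within the control range here, as it did for the effector SAMD9, a restriction factor of poxviruses, with 859, 680 and 1278 reads against 654, 580, 657 and 605 (0.49, SE 0.167, adjusted p = 0.102). Without duplex 3 the log2 fold changes were 0.21 for PARP9 and 0.29 for SAMD9. PARP9 and DTX3L, whose products act as a complex, overlap on opposite strands, which the stranded counting kept apart.

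**Figure D3:**
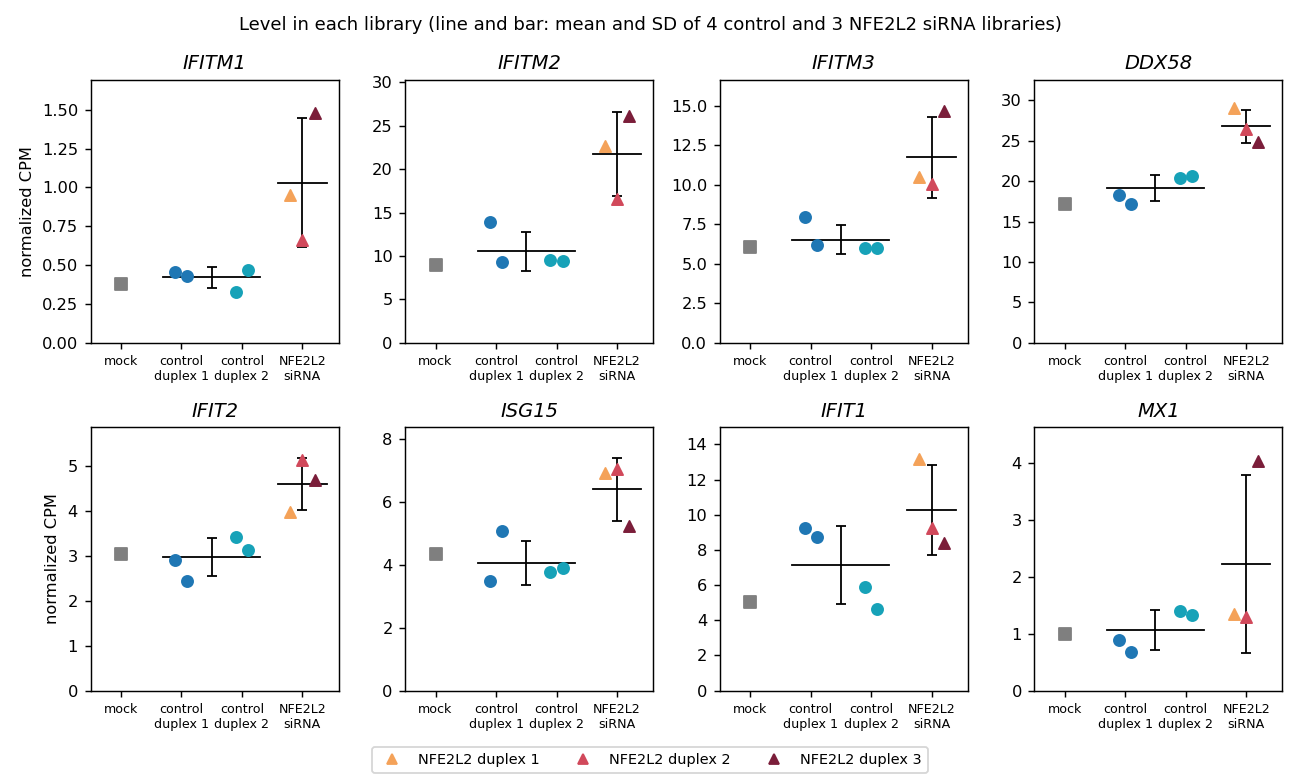
Normalized CPM in each library for 8 genes (squares: mock, n = 1; circles: control siRNA, n = 4; triangles: NFE2L2 siRNA, n = 3), with the mean as a line and the SD as a bar. IFITM1, IFITM2, IFITM3, DDX58, IFIT2 and ISG15 show no overlap between NFE2L2 and control siRNA, whereas IFIT1 and MX1 overlap and the MX1 mean rests on duplex 3 at 4.04 CPM.

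The 3 NFE2L2 duplexes were then set singly beside the control libraries as log2 ratios of CPM + 0.5 to the control mean, a scale that understates differences of low genes. With 1 library a duplex there is no test. The median over the 39 tested members was −0.01 for duplex 1, 0.09 for duplex 2 and 0.30 for duplex 3, where the median over all tested genes was 0.01 in each. With duplex 1, IFITM2 was more than 2-fold higher than the control mean (1 member, 2.56%, against 1.33% of all genes), and 0 members were more than 2-fold lower (against 2.48%). With duplex 2, 0 members were past 2-fold in either direction, against 0.691% of all genes higher and 1.6% lower. With duplex 3, MX1, IFITM1, IFITM2 and IFITM3 were more than 2-fold higher (10.3%, against 1.71%) and 0 were lower (against 1.64%). The library of duplex 3 was the highest of all 8 for 18 of the 39 members, against 18.95% of all genes. Of the 36 members that did not need that library to be tested, it was the highest for 15, against 18.2% of all genes so chosen, with a median of 0.27. NFE2L2 itself stood at 32.9, 52.0 and 29.7 CPM with duplexes 1 to 3, lowest in the library of duplex 3.

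**Figure D4:**
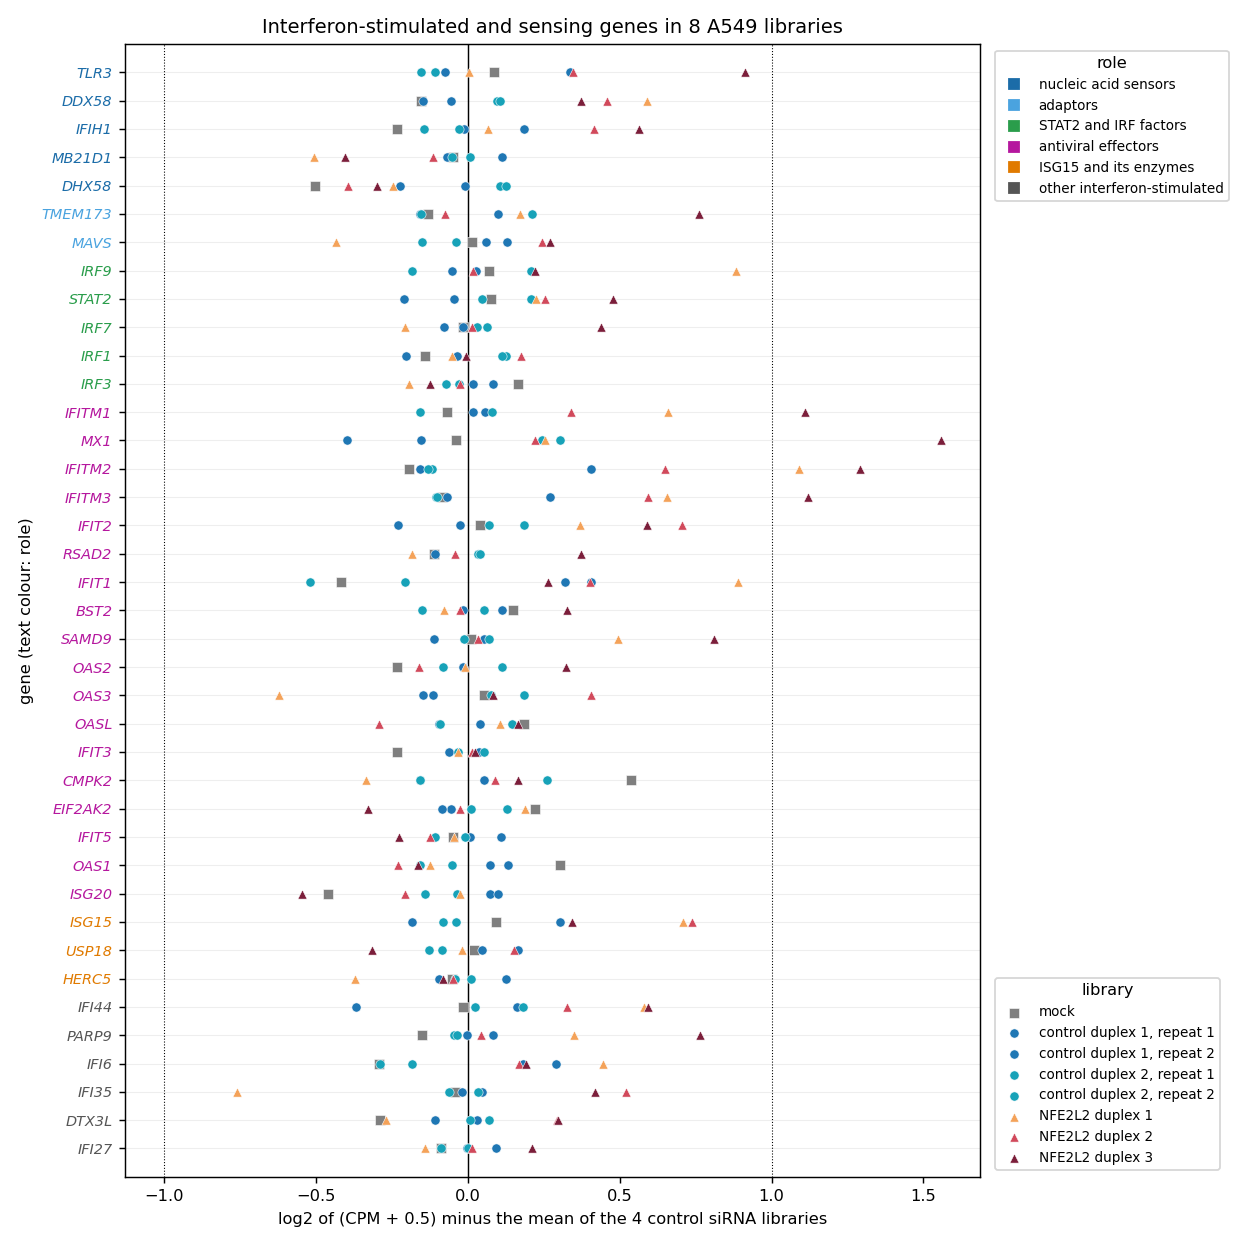
Log2 ratio of CPM + 0.5 in each of the 8 libraries to the mean of the 4 control libraries, for the 39 tested genes in order of role; dotted lines mark 2-fold. The dark triangles of NFE2L2 duplex 3 lie farthest right for 18 genes, with MX1 at 1.56, and control circles lie between −0.52 and 0.41. These 18 include BST2, OAS2 and RSAD2, which were tested only through that library. Without them the count is 15 of 36, against 18.2% of all genes so chosen.

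**Figure D5:**
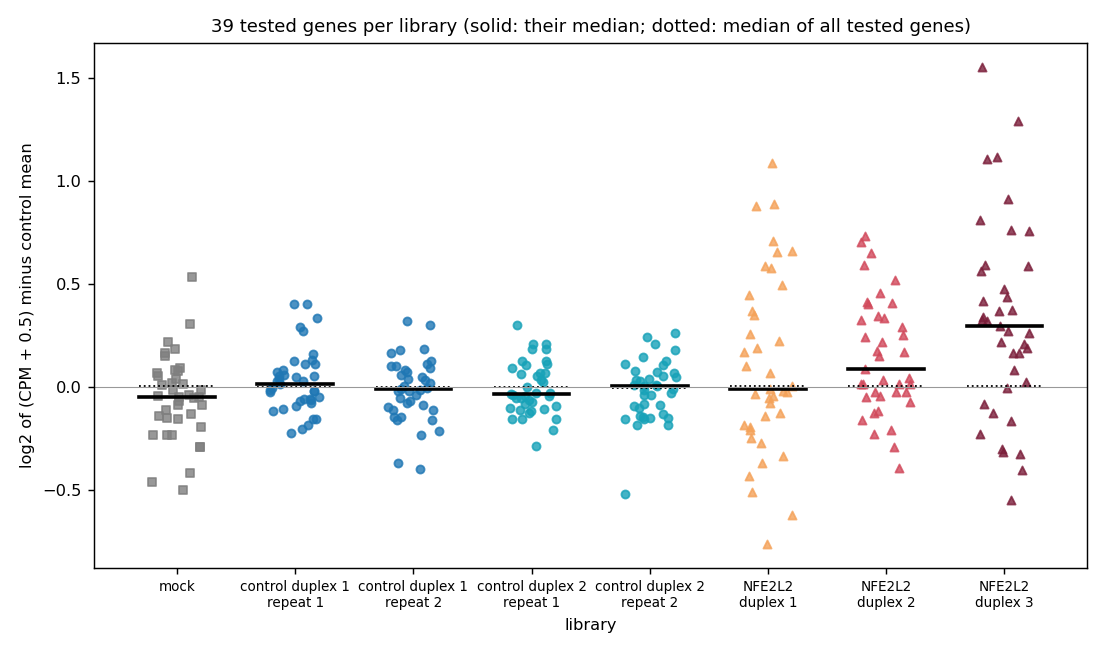
The same log2 ratios as 1 point per gene in each library, with the median of the 39 tested genes as a solid line and that of all tested genes as a dotted line. The solid line is at −0.05 in mock, between −0.03 and 0.02 in the controls and at −0.01, 0.09 and 0.30 with NFE2L2 duplexes 1 to 3.

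The second comparison, of control duplex 2 with control duplex 1, shows how far these genes differ between non-targeting duplexes. In the fit of all 7 siRNA libraries, 0 of 39 members and 0% of all genes passed 0.01, and the smallest adjusted p of a member was 0.492. An unadjusted p under 0.05 was found for 2 members (5.13%, against 7.26% of all genes), with DESeq2 and limma-voom also calling 0 members. These 2 were IFIT1 and IFI6, a mitochondrial protein gene induced by interferon. IFIT1, with 345 and 324 reads for control duplex 1 and 218 and 168 for duplex 2, had a log2 fold change of −0.77 (SE 0.237). IFI6, with 185 and 170 against 117 and 124 reads, had −0.53 (SE 0.180, adjusted p = 0.546). For both genes mock, with 201 and 126 reads, lay near control duplex 2. In the other direction STAT2 had 0.26 and MX1 0.81, both with the repeats of duplex 2 above those of duplex 1. A fit of the 4 control libraries alone called 3.28% of all genes and 1 of 36 members (2.78%), IFIT1, with −0.76 and an adjusted p of 0.00574. In the NFE2L2 siRNA comparison, the log2 fold change of IFIT1 was 0.18 against control duplex 1 alone and 0.96 against control duplex 2 alone.

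Mock received no RNA duplex, and its members were read on the same scale of CPM + 0.5. The members past 2-fold of the control mean were 0 higher, against 0.0112% of all genes, and 0 lower, against 0.269%. The median log2 ratio of the members was −0.05. On this scale the low DHX58, at 0.2003 CPM in mock and 0.496 ± 0.107 CPM in the controls (SD, n = 4), is not past 2-fold. Mock lay above every control library for 6 members (15.4%, against 22.6% of all genes), among them EIF2AK2, IRF3 and OAS1. It lay below every control library for 11 (28.2%, against 22.5%), among them DDX58, IFIH1, IFIT3 and DHX58. With 1 mock library these positions have no replicate check.

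The rest of the pathway was followed in lists of genes outside the 42. Of 15 interferon ligands and receptors, 7 were tested, and 0 passed 0.05 with edgeR, DESeq2 or limma-voom or had an unadjusted edgeR p under 0.05. The ligand genes IFNA1, IFNB1, IFNW1, IFNL1, IFNL2, IFNL3 and IFNG had 0 reads in all 8 libraries, which allows up to 3 reads a library, or 0.0705 to 0.0839 CPM. IFNE, an epithelial type I interferon, was counted at 172, 71 and 146 reads after NFE2L2 siRNA and at 81, 78, 193 and 131 in the controls, and the groups overlapped. Of 20 tested signalling and sensing genes, 1 passed 0.01 (5.0%, against 2.76% of all genes). TREX1, the exonuclease that removes cytosolic DNA ahead of cGAS, fell from 288, 305, 273 and 284 reads in the controls to 123, 165 and 162, with 330 in mock (log2 fold change −1.03, SE 0.126, adjusted p = 0.00136). It overlaps ATRIP on the same strand, so that its counts are uncertain.

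Of 41 other tested interferon-stimulated genes, 1 passed 0.01 with edgeR (2.44%, against 2.76% of all genes) and 3 with DESeq2 (7.32%, against 7.7%), and the list median was 0.16, against 0.01 over all tested genes. GBP2, a guanylate-binding protein gene best known as a target of interferon gamma, had 487, 690 and 593 reads with NFE2L2 siRNA, 243, 227, 173 and 167 in the controls and 113 in mock. It rose by 1.45 on the log2 scale (SE 0.162, adjusted p = 0.000791). GBP2 overlaps GBP7 on the same strand, so that its counts are uncertain. Its neighbours GBP1 (0.97, adjusted p = 0.0151) and GBP3 (0.65, adjusted p = 0.0417) passed 0.05 alone.

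Markers of several cell types, epithelial ones included, moved beside these results. With edgeR, the epithelial KRT19 (log2 fold change 0.88, adjusted p = 0.0200) and CDH1 (0.74, adjusted p = 0.0455) were higher past 0.05. EPCAM (0.80, adjusted p = 0.0624), KRT7, KRT8 and KRT18 did not pass. Among the markers below, COL1A1 (adjusted p = 0.000493), PDGFRA (0.00382) and CDH5 (0.00820) passed 0.01, all higher. The summed level of 6 blood cell markers was 4.57 to 6.88 CPM in the controls and 7.73 to 11.1 CPM with NFE2L2 siRNA, nearly all from CD14, while PTPRC had at most 3 reads and CD3E at most 1. The 4 fibroblast markers summed to 5.32 to 6.63 CPM and 12.5 to 18.03 CPM, mostly from COL1A1, with DCN at most 1 read, and the 2 matched endothelial markers to 0.215 to 0.305 CPM and 0.615 to 0.987 CPM. Their part in the results was not tested.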

How the data were processed

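RNA of A549 cells was sequenced as strand-specific total RNA libraries: 3 NFE2L2 siRNA, 4 control siRNA and 1 mock, grouped by their titles. The authors aligned reads to hg19 with HISAT 0.1.6 and deposited raw counts per GENCODE v19 gene, made by HTSeq 0.6.0 in its reverse-stranded, strict-intersection mode, without normalization; its 5 rows of reads without a gene were not used. Strict intersection drops reads that reach beyond a gene model or fall on several genes.

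Any gene with 10 reads or more in any of the 7 siRNA libraries entered edgeR 4.0.16, run in R 4.3.3 (TMM, quasi-likelihood test, two-sided, prior count 0.125, Benjamini-Hochberg, threshold 0.01). Mock was left out, as in the study. Standard errors are the fold change over the square root of F. Ratios of single libraries used CPM + 0.5. Alternatives were DESeq2 1.42.0 (the study also used DESeq2), limma 3.58.1 (voom), other scalings, filters, thresholds and control groups, and the omission of each library. On counts simulated for the NFE2L2 siRNA comparison, 77.6% of 98 genes changed 2-fold and 96.1% of 102 changed 4-fold were recovered, with 2 false calls among 17471 genes. For the control duplexes, 34.5% of 113 and 94.3% of 87 were recovered, with 2 false calls among 17418. The changed genes were drawn only from well-counted genes, so these rates do not cover members with few reads. Apart from the changes set, the simulated libraries varied independently, with no difference between duplexes.

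Positions and exon lengths came from GENCODE v44 mapped to GRCh37, and promoter windows from RefSeq, 31 of 42 genes matched. The members and lists were chosen with earlier results of these data known. Values in every library were to be given for members past the threshold, for members past 2-fold in mock and for the sensors and factors; the IFITM and IFIT genes, ISG15, MX1, IFI44, PARP9, SAMD9 and IFI6 were added after their values were seen. In the other lists, genes past the threshold were named. Replicate libraries differed by more than counting noise. Floors cover counting error only. Intervals of 2 SE and p-values both rest on the spread between libraries of 1 cell line. That spread mixes different NFE2L2 duplexes with repeats of the control duplexes, and repeats of 1 control duplex were counted as separate libraries.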

Additional observations from a re-analysis of the deposited data

Results flagged for a closer look

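Among the 4 control siRNA libraries, 1 library stood far from the other 3 for 4 of the 39 tested genes, by the gap to its nearest neighbour over the whole range. Chance alone would give about 1.95 such genes, counted over any of the 4 libraries. In each case it was repeat 1 of control duplex 1. This library was the highest for IFITM2 at 13.9 CPM (gap share 0.938), for IFITM3 at 7.92 CPM (0.917) and for TLR3 at 2.42 CPM (0.862), and the lowest for RSAD2 at 0.0269 CPM (0.957), where it held 1 read. Without this library the log2 fold change of IFITM2 was 1.21.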

How the results depend on the processing

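The members past 0.01 in the NFE2L2 siRNA comparison were all higher wherever there were any. Their number was 6 of 39 at a threshold of 0.05 (1456 of 17811 genes) and 4 of 36 with DESeq2 (1319 of 17119 genes). It was 3 with a filter of 1 read (1019 of 29942 genes) and 3 with mock among the controls (772 of 17895 genes). For this filter and for added mock, the number of members tested is not given. With library size alone it was 1 of 39 (518 of 17811 genes), against 0 of 39 in the main test (491 of 17811 genes). Genes in all numbered 120 (0.681%) against control duplex 1 and 59 (0.334%) against control duplex 2, each with 0 members called. After summing the repeats of a control duplex they numbered 78 (0.419%), also with 0 members called. With single libraries left out, 163 to 915 genes (0.917% to 5.16%) and 0 to 4 members were called, and the median of the members was 0.079 to 0.323. It was 0.10 with limma-voom; the cause was not tested. The uncalled MAVS, EIF2AK2, IRF1 and IRF7 changed sign. MAVS was −0.044 and EIF2AK2 0.020 against control duplex 1, IRF1 was −0.079 against control duplex 2, and with single libraries left out MAVS ranged from −0.059 to 0.255, IRF1 from −0.049 to 0.083, EIF2AK2 from −0.172 to 0.085 and IRF7 from −0.105 to 0.273.

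Between the control duplexes, 10 genes passed 0.05, 70 passed with DESeq2 and 8 with a filter of 1 read (median of the members 0.0092). With the 4 control libraries alone 566 genes passed (3.28%), where 1 of 36 members was lower. With single libraries left out, 0 to 9 genes passed and the median was −0.082 to −0.0020. The titles do not say whether control libraries of the same repeat number were handled together. Repeat 1 minus repeat 2 correlated with r = 0.275 between the duplexes over 13783 genes, so that libraries of the same repeat number varied together in part. With the replicate block 15.1% of all genes passed (2615), with 3 members higher and 3 lower among 36 tested members. No paired analysis was possible for the NFE2L2 siRNA comparison because its numbers are those of different duplexes.

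Pseudocounts of 0.1 and 2 CPM gave 3 and 0 members past 2-fold for NFE2L2 duplex 1 and 8 and 1 for duplex 3. The share of all genes past 2-fold is not given at these pseudocounts, and the smaller one widens the ratios of low genes. The members counted include BST2, OAS2 and RSAD2, which were tested only through the library of duplex 3. Medians were 0.16 and 0.041 for duplex 2 and 0.37 and 0.15 for duplex 3. Members of at least 1 CPM had medians of 0.18 and 0.27. With control libraries left out, duplex 1 had 1 to 2 members past 2-fold and duplex 2 a median of 0.045 to 0.108. Depth limits the 13 members under 1 CPM most.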

Other observations

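Several members with next to no reads in 7 libraries had their most reads in the library of NFE2L2 duplex 3, and were picked out after their values were seen. RSAD2, the gene of the antiviral enzyme viperin, had 10 reads there and 0 to 3 in the others. IFI44L had 9 against 0 to 2, XAF1, a gene linked to apoptosis, had 7 against 0 to 1, OAS2 had 10 against 0 to 5, and BST2, the gene of the virus-tethering protein tetherin, had 10 against 1 to 6. At these counts no fold is given, and the difference between duplexes was not tested. That library also held the most gene counts (41645410), and 18.95% of all tested genes had their highest CPM there. The share among genes with as few reads was not counted. BST2, OAS2 and RSAD2 entered the tests only through that library. MX2, with 4 reads there and 0 to 3 in the others, showed no such gap, and CMPK2, the neighbour of RSAD2, had 24 reads there and 35 in mock.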
